A study of Mus musculus with 435 samples.

Results

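The step of the fetal mouse gonad between embryonic stages E10.5 and E11.5 was described from 152 single cells, 93 at E11.5 and 59 at E10.5, of 396 cells kept over all stages. They were chosen by stage label alone, and measured values played no part in the choice. Both groups were single cells positive for NR5A1-eGFP, a green reporter of Nr5a1, sorted by flow cytometry from XY gonads of mice of mixed background that carried the reporter. RNA of each cell was converted to cDNA in the wells of small Fluidigm C1 chips and sequenced, and the deposited values are RPKM, reads scaled to transcript length and to the reads of the library. The E11.5 cells came from 2 captures (runs of the chip) of 52 and 41 cells, and the E10.5 cells from 1 capture of 59. The labels do not say which or how many embryos went into a capture, so p-values here measure the spread between captures, and the spread at E10.5 was taken from the later stages.

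In the mouse embryo the genital ridge forms as a thickening of the coelomic epithelium on the inner face of the mesonephros. Its cells switch on Nr5a1, a nuclear receptor that precursors of the gonad and of the adrenal cortex need in order to survive. In XY embryos the precursors begin to express Sry for a short time around the later of these stages, and supporting cells then enter the Sertoli programme, while steroid-producing Leydig cells appear later. GATA4, WT1, LHX9, EMX2 and NR5A1 are the transcription factors best known for building the ridge.

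The E11.5 captures were labelled as sequenced to 10 M reads and the E10.5 capture to 25 M reads, in different sequencing runs, so run and stage cannot be told apart in this comparison. The depth implied by the values had medians of 2.2 and 2.74 M reads per cell in the E11.5 captures and 7.91 M at E10.5. The median cell had 4959.5 and 5668 detected genes at E11.5, against 6503 at E10.5. At least 2 of the 8 markers of gonadal somatic precursors were found, at 1 RPKM or more, in 51 of 52 and 40 of 41 cells at E11.5 and in 56 of 59 at E10.5, and Lhx2 was the marker missing from all of them. At least 2 markers of mesonephric tubules were found in 4 and 1 cells at E11.5 and in 12 cells at E10.5. At least 2 markers of the adrenal cortex, whose precursors also express Nr5a1, were found in 2 and 0 cells at E11.5 and in 7 at E10.5, with Cyp11b1 and Cyp11b2 at 0 throughout, and at least 2 endothelial markers in 4 and 2 cells at E11.5 and in 1 at E10.5. No cell had 2 markers of germ cells, macrophages or red blood cells, though several of these markers, the globin genes and Ptprc among them, were not in the values used here.

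The reporter and the gene it reports both had higher values at E11.5. eGFP had capture means of 1802 and 3505 RPKM at E11.5 and 683 RPKM at E10.5. Nr5a1 had 48.7 and 58.9 RPKM at E11.5 and 13 RPKM at E10.5. Both E11.5 captures lay above E10.5 for each, but neither passed the test (limma across all genes, Benjamini-Hochberg adjusted p of 0.1002 for eGFP and 0.130 for Nr5a1).

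Of 12313 genes tested, 47 (0.382%) rose at E11.5 and 1 (0.00812%) fell, 0.39% in either direction. The median gene changed by 0.07 on the log2 scale. To be tested a gene had to reach 1 RPKM in 2 captures, and E10.5 has 1 capture. A gene found at E10.5 alone was thus left out, while a gene absent there could enter. Without this filter 41 genes rose and 164 fell. At E10.5, 24 of the 47 genes that rose averaged under 1 RPKM, and 12 of them were found at 1 RPKM in 0 of 59 cells. Genes so low at E10.5 passed the filter through captures of other stages, so these counts only describe them. Both E11.5 captures lay above the E10.5 capture for all 47, and the second E11.5 capture was the higher of the pair for 39. The count rests on that second capture. Without it 6 genes rose (Akr1cl, Gstm1, Ifitm1, Inha, Kctd14 and Tulp2), and without the first capture 27 did. These 6 passed in each of the 8 fits that left out 1 capture of E11.5 or of a later stage. Without cells that carried markers of other cell types 24 genes rose, and with the difference between E12.5 and E13.5, which lie in the same 2 sequencing runs, subtracted, 17 rose. With limma's plain variance model in place of the trended, robust one, 0 genes passed in either direction (758 at an unadjusted p under 0.05, smallest adjusted p 0.0605).

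Upstream sequence was available for 32 of the 47 genes, from RefSeq on GRCm38.p6. It is shown for 3 genes that rose and held AGATAA, a form of the GATA site and the motif with the most matches of those searched. Gstm1 and Inha rose without holding these letters. AGATAA occurred on either strand in the 250 bases before a start of 7 of the 32 genes (21.9%). Among all 9240 tested genes with such sequence 6.93% held it, and the difference was not tested. Capitals mark AGATAA, or TTATCT where it lies on the opposite strand, and each sequence runs 5′ to 3′ on the strand of its gene up to the last base before the RefSeq start. The regions are chr1:65032760-65033009 (minus strand) for Akr1cl, chr7:45486012-45486261 (plus strand) for Tulp2 and chr16:45409054-45409303 (minus strand) for Cd200.
Akr1cl: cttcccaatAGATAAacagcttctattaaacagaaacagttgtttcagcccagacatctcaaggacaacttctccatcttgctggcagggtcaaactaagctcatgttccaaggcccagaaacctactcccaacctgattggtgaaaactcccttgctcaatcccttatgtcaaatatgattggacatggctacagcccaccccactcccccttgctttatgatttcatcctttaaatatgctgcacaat
Tulp2: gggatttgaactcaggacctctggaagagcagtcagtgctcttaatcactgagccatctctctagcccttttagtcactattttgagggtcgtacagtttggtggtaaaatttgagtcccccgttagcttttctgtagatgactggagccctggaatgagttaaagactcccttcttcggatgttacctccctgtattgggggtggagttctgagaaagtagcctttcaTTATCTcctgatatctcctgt
Cd200: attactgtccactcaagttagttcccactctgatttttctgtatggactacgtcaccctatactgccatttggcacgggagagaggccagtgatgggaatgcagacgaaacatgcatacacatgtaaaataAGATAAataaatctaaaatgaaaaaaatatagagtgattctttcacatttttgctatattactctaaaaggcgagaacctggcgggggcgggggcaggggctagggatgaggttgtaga
The match begins 241 bases before the start in Akr1cl, 21 in Tulp2 and 119 in Cd200. The other 4 genes with the letters were Aldh1a1, Anxa4, Reep1 and S100a11. Searched on both strands in the same windows, TGACTCA (AP-1) was found in 3 of 32 genes against 3.66% of all, and TGACGCAA in 1 of 32 against 0.952%. AAGGTCA (an NR5A1 monomer site), AACAAAG (an SRY and SOX core) and TGACGTCA (a cAMP response element) were found in 0 of 32, against 3.37%, 4.16% and 3.11% of all. Each motif was counted on its own, and overlaps between motifs were allowed. A gene was counted if any of its windows held the letters, and a window with AGATAA was shown first where a gene had several. The Tulp2 window lies inside the GENCODE span of that gene, chr7:45481877-45523632. So does an Inha window, chr1:75507359-75507608, inside chr1:75507077-75510366, and it is thus not the sequence before the GENCODE start of Inha. These are matches of letters and not sites of binding.

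The largest rise was that of Kctd14, a gene for a protein with a potassium channel tetramerisation domain that lies on the plus strand of chr7:97451323-97459557 (GRCm38). Its capture means were 206 and 546 RPKM at E11.5, against 0.108 RPKM at E10.5, a log2 change of 8.25 ± 0.67 (SE) with an adjusted p of 0.00056. All log2 changes here are of log2(RPKM + 1), which understates the change of low genes. It was found in 24 of 52 cells (46.2%, Wilson 95% interval 33.3 to 59.5) and 22 of 41 cells (53.7%, 38.7 to 67.9) at E11.5, against 3 of 59 cells (5.08%, 1.74 to 13.9) at E10.5. At the 1 RPKM cut Kctd14 was thus a gene of about every other cell at E11.5. Values above 0 were found in 71.2% and 95.1% of E11.5 cells and in 27.1% of E10.5 cells. The highest cells reached 2021 and 3174 RPKM at E11.5, against 1.83 RPKM in the highest E10.5 cell. Such intervals cover counting error only.

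Among the 20 largest rises were the enzymes Gstm1 and Akr1cl. Gstm1, a glutathione S-transferase of the mu class, averaged 310 and 565 RPKM at E11.5 and 13.6 RPKM at E10.5 (log2 change 4.84 ± 0.50, limma adjusted p 0.00158). It was found in 37 of 52 and 27 of 41 cells at E11.5 and in 26 of 59 at E10.5, so the level in positive cells differed along with the share. Akr1cl, of the aldo-keto reductase family, averaged 106 and 163 RPKM at E11.5 and 4.39 RPKM at E10.5 (4.62 ± 0.42, adjusted p 0.000947). Gstm2, which neighbours Gstm1 on chromosome 3 at a distance of 25.8 kb, rose as well, with 93.5 and 178 RPKM at E11.5 and 8.93 RPKM at E10.5, and so did the microsomal transferase Mgst1, with 98.7 and 128 RPKM at E11.5 against 22 RPKM at E10.5. The mu class genes are close copies of one another, and how reads shared between them were assigned is not given in the sources used here. Of 23 tested genes of glutathione metabolism Gstm1, Gstm2 and Mgst1 rose and none fell, against 0.382% of all genes that rose. Mgst1 passed in 2 and Gstm2 in 7 of the 8 leave-one-out fits. The median of that list was 0.27, against 0.07 for all genes. This list and those below were chosen with earlier results of these data known, so list counts and medians only describe the members.

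Ifitm1, an interferon-induced transmembrane protein, averaged 279 and 421 RPKM at E11.5 and 13.6 RPKM at E10.5 (log2 change 4.55 ± 0.44, limma adjusted p 0.00108). Ptrf, which codes for the coat protein of caveolae, had 26.2 and 67.6 RPKM at E11.5 and 0.0296 at E10.5, and it was found in 27 of 52 and 20 of 41 cells at E11.5 and in 0 of 59 at E10.5. Cpne8, a calcium-dependent phospholipid-binding protein, had 17.1 and 37.5 RPKM at E11.5 and 0.0217 at E10.5. At the same cut it was found in 27 of 52 and 27 of 41 cells at E11.5 and in 0 of 59 at E10.5. That allows a share at this cut of up to 5.08% by the limit that 3 cells set and of up to 6.11% by the Wilson 95% interval. Values of Cpne8 above 0 were found in 65.4% and 82.9% of E11.5 cells and in 13.6% of E10.5 cells. The orphan receptor Gpr37, the membrane protease Tmprss13, the sodium pump subunit Atp1b2 and the immune-inhibitory ligand Cd200 rose by 4.59, 4.54, 4.02 and 3.79. The other genes with the largest rises were Rgcc, Tulp2, Clca1, Hoxd10, Mapk13, Etnk2, Zc3hav1, Mmd2, Cyp11a1, Reep1 and Mansc4, with log2 changes between 4.03 and 5.84 and adjusted p between 0.00158 and 0.0454.

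**Figure D1:**
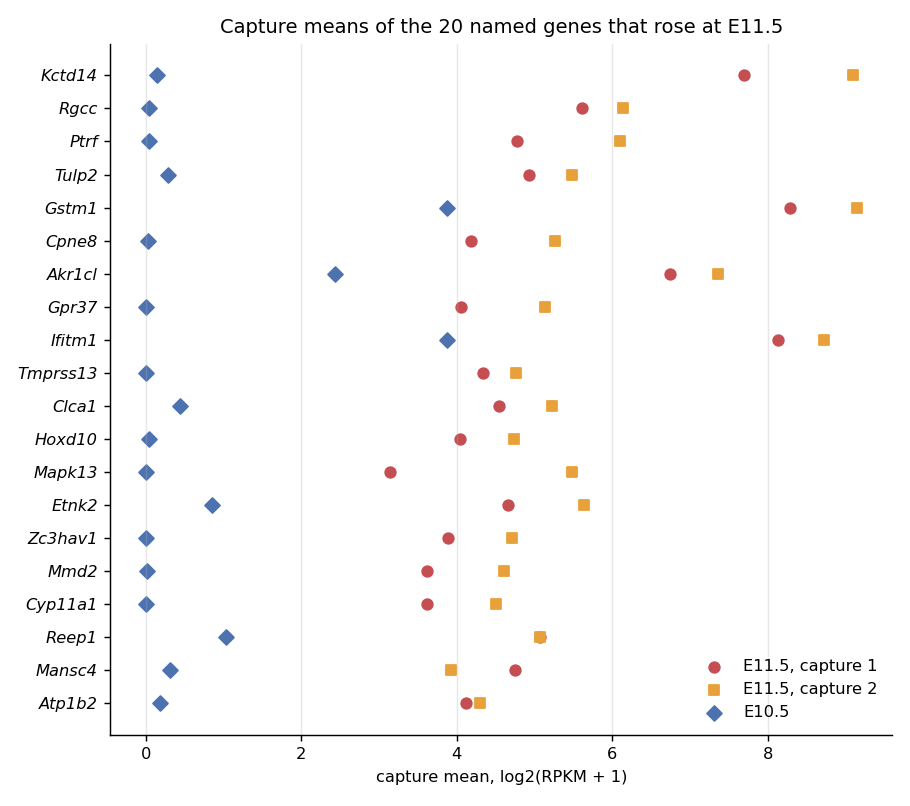
Mean over the cells of each capture, on a log2(RPKM + 1) axis, for the 20 named genes that rose, ordered by the size of the change. The E10.5 capture lies left of both E11.5 captures in all 20 rows. Kctd14 and Gstm1 reach the highest levels, 546 and 565 RPKM in the second E11.5 capture.

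The genes that rose differed in how many cells carried them. Nfia, a nuclear factor I transcription factor, was found in 51 of 52 cells (98.1%, Wilson 95% interval 89.9 to 99.7) and 40 of 41 cells (97.6%, 87.4 to 99.6) at E11.5, against 31 of 59 (52.5%, 40.0 to 64.7) at E10.5. Its median cell had 71.2 and 68.9 RPKM at E11.5 and 2.10 RPKM at E10.5. Nearly every E11.5 cell thus carried Nfia. Tmem176b, a transmembrane protein gene that overlaps its neighbour Tmem176a on chromosome 6, had a median cell of 129 and 117 RPKM at E11.5 and 2.28 at E10.5. S100a11, a calcium-binding protein, had 257 and 295 RPKM in the median cell at E11.5 and 41.9 at E10.5. Soat1, the enzyme that esterifies cholesterol for storage, had 32.4 and 50.7 RPKM in the median cell at E11.5 and 3.16 at E10.5.

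Other rises came from few cells. Hoxd10, of the posterior end of the HOXD cluster, averaged 15.5 and 25.7 RPKM at E11.5 and 0.0328 at E10.5, but was found in 8 of 52 and 5 of 41 cells at E11.5 and in 1 of 59 at E10.5. Cyp11a1, which cleaves the side chain of cholesterol in the first step of steroid synthesis, averaged 11.2 and 21.7 RPKM at E11.5 and 0.00223 at E10.5, from 4 of 52 and 5 of 41 cells at E11.5 and 0 of 59 at E10.5. Mmd2, known as an early Sertoli gene, was found in 5 and 7 cells at E11.5 and in 0 at E10.5, and Mansc4 in 5 and 5 at E11.5 and in 1 at E10.5. For these genes a few cells set the capture mean, and the intervals of the shares at both stages overlapped in both E11.5 captures for Cyp11a1, Hoxd10 and Mansc4 and in the first for Mmd2 (for Cyp11a1 3.03 to 18.2% and 5.32 to 25.5% at E11.5, 0 to 6.11% at E10.5).

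Counted per cell, the median number of the 47 genes found at 1 RPKM was 17 (8 to 37) and 21 (8 to 39) at E11.5, against 10 (1 to 15) at E10.5. After every cell was thinned to 1.5 M reads, which kept 48, 38 and 59 cells and 44 of the genes, it was 17 and 20.5 at E11.5 and 10 at E10.5. The share of cells was above that of E10.5 in both E11.5 captures for 44 of the 47 genes as deposited, and for 42 of 44 after thinning. The test that chose these genes used the same cells, so the counts only describe them.

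**Figure D2:**
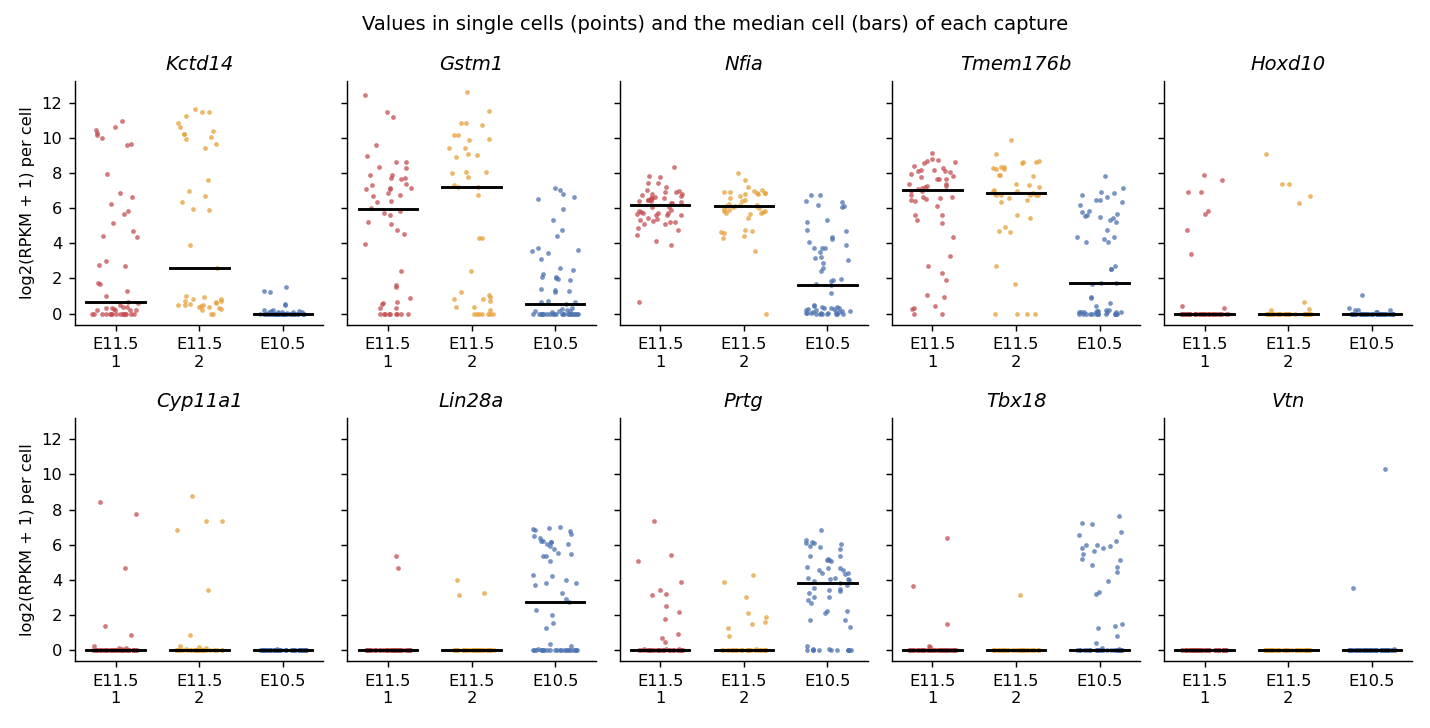
Log2(RPKM + 1) in each cell (points) and in the median cell (bars) for 10 genes, by capture. At 1 RPKM or more, Nfia and Tmem176b fill nearly all E11.5 cells, Kctd14 about every other one, Hoxd10 and Cyp11a1 a few. Lin28a, Prtg and Tbx18 are found mainly at E10.5, and Vtn in 2 E10.5 cells only.

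Within a capture, some of the large rises went together from cell to cell. Over the 41 cells of the second E11.5 capture, the Spearman correlation of Kctd14 was 0.870 with Gstm1, 0.772 with Gpr37, 0.766 with Akr1cl and 0.634 with Tulp2. Over the 52 cells of the first it was 0.417, 0.451, 0.603 and 0.468 for the same genes. With Ptrf, in contrast, the correlation was -0.19 in the second capture and 0.136 in the first, and with Cpne8 it was 0.0514 and 0.205. The correlation of Kctd14 with the number of detected genes was 0.179 and 0.164. Kctd14, Gstm1, Akr1cl and Gpr37 thus tended to share cells at E11.5, while Ptrf and Cpne8, found in similar numbers of cells, were spread differently. These are descriptions over cells of 1 library preparation, with many values of 0.

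No gene of the lists for the ridge and for testis determination passed the test on capture means. Of 18 tested ridge transcription factors 5 had an unadjusted p under 0.05 in limma, against 787 of all 12313 genes. The list median was 0.21 against 0.07 for all genes. Gata4 had 41.9 and 82.1 RPKM at E11.5 and 17.9 at E10.5, and Wt1 had 163 and 170 at E11.5 and 58.5 at E10.5, in both cases with the E11.5 captures above. Lhx9 had 27.5 and 48.3 RPKM at E11.5 and 29.3 at E10.5, with the stages overlapping. Nr0b1, the orphan receptor DAX1 on the X chromosome, had 11.6 and 37.5 RPKM at E11.5 and 0.00513 at E10.5 (adjusted p 0.0916). Of 18 tested testis-determination genes 6 had an unadjusted p under 0.05 in limma, against 787 of all 12313 genes. The list median was 0.82 against 0.07 for all genes. Sry, the Y-linked switch, had 5.89 and 6.11 RPKM at E11.5 and was listed at 0 at E10.5. It was found in 5 of 52 and 5 of 41 cells at E11.5 and in 0 of 59 at E10.5 (adjusted p 0.156). Gadd45g, which is needed for timely Sry expression in the mouse, had 82.3 and 136 RPKM at E11.5 and 8.56 at E10.5 (adjusted p 0.124). Sox9, which acts downstream of Sry, had 40.4 and 121 RPKM at E11.5 and 60.3 at E10.5, with overlapping stages.

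Markers of the differentiated lineages gave a mixed picture. Of 22 tested Sertoli genes 2 rose, Mmd2 and Inha, against 0.382% of all genes, and the list median was 0.82 against 0.07 for all genes. The share of cells with Sertoli markers was not higher at E11.5. At least 2 of 8 such markers, Sox9 among them, were found in 12 of 52 and 11 of 41 cells at E11.5 and in 18 of 59 at E10.5. Inha, the alpha subunit of inhibin, averaged 56.8 and 43.6 RPKM at E11.5 and 4.20 at E10.5 (log2 change 3.29 ± 0.40, limma adjusted p 0.00438), and it was found in 16 of 52 and 13 of 41 cells at E11.5 and in 6 of 59 at E10.5. Amh, the hormone of differentiated Sertoli cells, was found in no cell of either stage, as was Insl3, a Leydig cell hormone. Of 16 tested steroid synthesis genes 1 rose, Cyp11a1, against 0.382% of all genes, with a list median of 0.50, and it held in 2 of the 8 leave-one-out fits. Star, the cholesterol carrier of the mitochondrial membrane, had 26.8 and 8.77 RPKM at E11.5 and 0.334 at E10.5 (adjusted p 0.130). Of 7 tested genes of the ovarian supporting lineage none passed in either direction.

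Among signalling genes single members passed. Wnt5a, a noncanonical Wnt ligand, averaged 15 and 22.8 RPKM at E11.5 and 1.33 at E10.5 (log2 change 3.07 ± 0.49, limma adjusted p 0.0206) and was the sole call among 22 tested Wnt genes, against 0.382% of all genes that rose, with a list median of 0.81 against 0.07. Aldh1a1, which makes retinoic acid from retinaldehyde, averaged 7.07 and 26.9 RPKM at E11.5 and 0.0928 at E10.5, and rose as the only 1 of 16 tested genes of the retinoic acid pathway, against 0.382% of all genes, with a list median of 0.17. It held in 3 of the 8 leave-one-out fits. Axl, a receptor kinase that recognises apoptotic cells through its ligand, had 26.8 and 30.8 RPKM at E11.5 and 4.24 at E10.5 (limma adjusted p 0.0429), a call that was lost in all 8 leave-one-out fits (adjusted p 0.0551 to 0.332). Mfge8, a bridging protein with a like role, had 260 and 313 RPKM at E11.5 and 51.1 at E10.5 and rose, passing in 6 of them. It was found in 35 of 52 and 29 of 41 cells at E11.5 and in 42 of 59 at E10.5, so its share of cells was not higher at E11.5. The highest cells of Mfge8 reached 2737 and 2276 RPKM at E11.5 and 235 RPKM at E10.5. With log2(RPKM + 1) averaged over cells instead, Mfge8 did not pass (limma adjusted p 0.698). Igf1 had 49.8 and 38.5 RPKM at E11.5 and 3.17 at E10.5 without passing (adjusted p 0.0656). Immediate early and stress genes set the E11.5 captures apart from each other, with list medians of 1.23 in the first and -0.83 in the second, both relative to E10.5, and a summed level of 2306 and 626 RPKM at E11.5 against 947 at E10.5. The part of this difference in the other results was not tested.

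**Figure D3:**
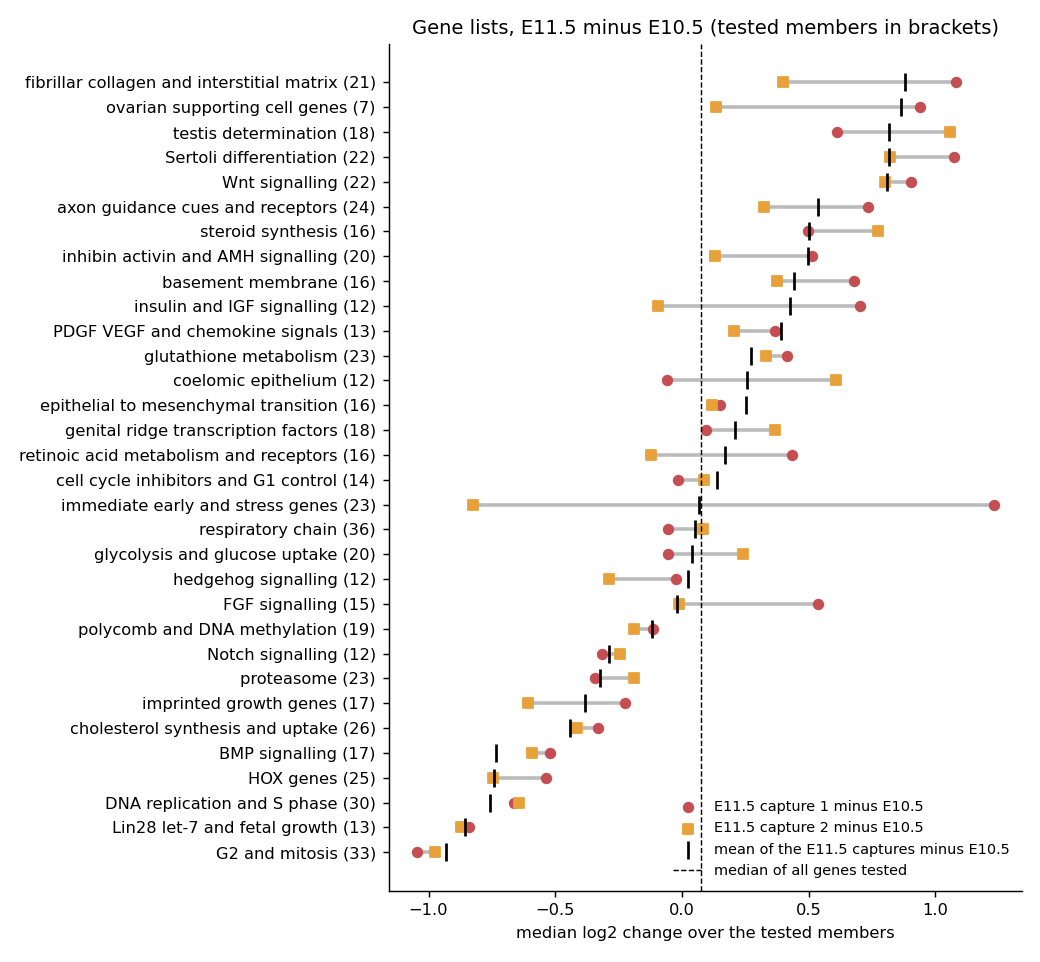
Median log2 change over the tested members of each of 32 gene lists, E11.5 minus E10.5, for each E11.5 capture and for their mean, with the median of all genes as a dashed line. Genes of DNA replication, of mitosis, of the HOX clusters and of the Lin28 list lie left of the line in both captures, while the immediate early genes split the captures.

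The single gene that fell on capture means was Vtn, vitronectin, and its fall rests on few cells. It was listed at 0 in both E11.5 captures and averaged 21.6 RPKM at E10.5, but it was found in only 2 of 59 cells there. Vtn passed (limma adjusted p 0.0246), yet with the highest and lowest cells trimmed from each capture its value was 0 at both stages. Epcam, an epithelial adhesion molecule that was also a mesonephric tubule marker here, behaved similarly, with 0.239 and 0.132 RPKM at E11.5 and 10.4 at E10.5, found in 1, 1 and 5 cells.

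A capture mean follows the highest cells. When log2(RPKM + 1) was instead averaged over cells, which follows the share of cells that carry a gene, 82 genes (0.666%) fell at E11.5 and 10 (0.0812%) rose. Of the 47 genes that rose on capture means, 5 also rose here, namely Nfia, Tmem176b, Cpne8, Ifitm1 and Soat1, and no gene fell in both fits. Over the 82 genes the median share of cells was 11.54% and 12.2% in the E11.5 captures and 47.5% at E10.5. The share was below that of E10.5 in both E11.5 captures for 82 of 82. The fit that chose these genes used the same cells, so the shares only describe them. The E11.5 captures were the shallower ones, and lower depth lowers a share. After the deeper run was thinned to the depth of the other, 81 genes fell and 10 rose. Without the second E11.5 capture 17 fell, without the first 47, without cells with markers of other types 53, and with the E12.5 to E13.5 difference subtracted 21. With the plain variance model 3 fell.

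The 6 genes with the smallest adjusted p in that fit, listed with their values in view, were Arg1, Lin28a, Tbx18, Fndc3c1, Prtg and Bend4. Lin28a, an RNA-binding protein of early embryonic cells that blocks let-7 maturation, was found in 2 of 52 cells (3.85%, Wilson 95% interval 1.06 to 13) and 3 of 41 cells (7.32%, 2.52 to 19.4) at E11.5, against 34 of 59 (57.6%, 44.9 to 69.4) at E10.5. Thinned to 1.5 M reads the shares were 4.17% and 5.26% at E11.5 and 57.6% at E10.5. Its mean log2 value fell by 2.66 ± 0.22 (SE, limma adjusted p 5.4e-07), whereas its capture means of 1.26 and 0.769 RPKM at E11.5 and 29.2 at E10.5 missed the threshold (adjusted p 0.0592). Arg1, arginase, was found in 0 of 52 and 1 of 41 cells at E11.5 and in 28 of 59 at E10.5. Tbx18, a T-box factor of the mesonephric mesenchyme and coelomic epithelium, was found in 3 and 1 cells at E11.5 and in 24 at E10.5. Prtg, protogenin, a transmembrane protein of early embryonic tissues, was found in 10 and 8 cells at E11.5 and in 46 at E10.5.

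Of 13 tested genes of the Lin28 and fetal growth list 5 fell in this fit, Lin28a, Lin28b, Hmga1, Prtg and Sall4, against 0.666% of all genes. The list median was -1.18, against -0.09 for all genes. Its members, too, were chosen with earlier results of these data known, so the count only describes them. Hmga1, a chromatin protein of proliferating embryonic cells, was found in 44.2% and 53.7% of cells at E11.5 and in 94.9% at E10.5. Of 25 tested HOX genes 6 fell, Hoxa2, Hoxa7, Hoxb6, Hoxb7, Hoxb9 and Hoxc8, and the list median was -0.47. Hoxc8, the highest of these on capture means at E10.5, had 15.95 and 7.95 RPKM at E11.5 and 40.8 at E10.5, and was found in 42.3% and 43.9% of cells at E11.5 and in 88.1% at E10.5. On capture means Hoxd10 rose and no HOX gene fell, and 18 of the 25 had a negative value in either fit. Other genes that fell on mean log2 values were Nr2f1, an orphan receptor of mesenchyme and nervous system, Crabp2, which delivers retinoic acid to its receptors, and the BMP pathway genes Bmp4, Bmp5 and Smad9. Mesonephric tubule markers, summed, were at 15.5 and 4.42 RPKM at E11.5 and 36.7 at E10.5. Adrenal cortex markers, Hoxb9 among them, were at 64.2 and 19 RPKM at E11.5 and 98.2 at E10.5. Most of the adrenal sum was Mc2r, with 59.7 and 18.9 RPKM at E11.5 and 85.5 at E10.5. The part of both marker lists in these falls was not tested.

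**Figure D4:**
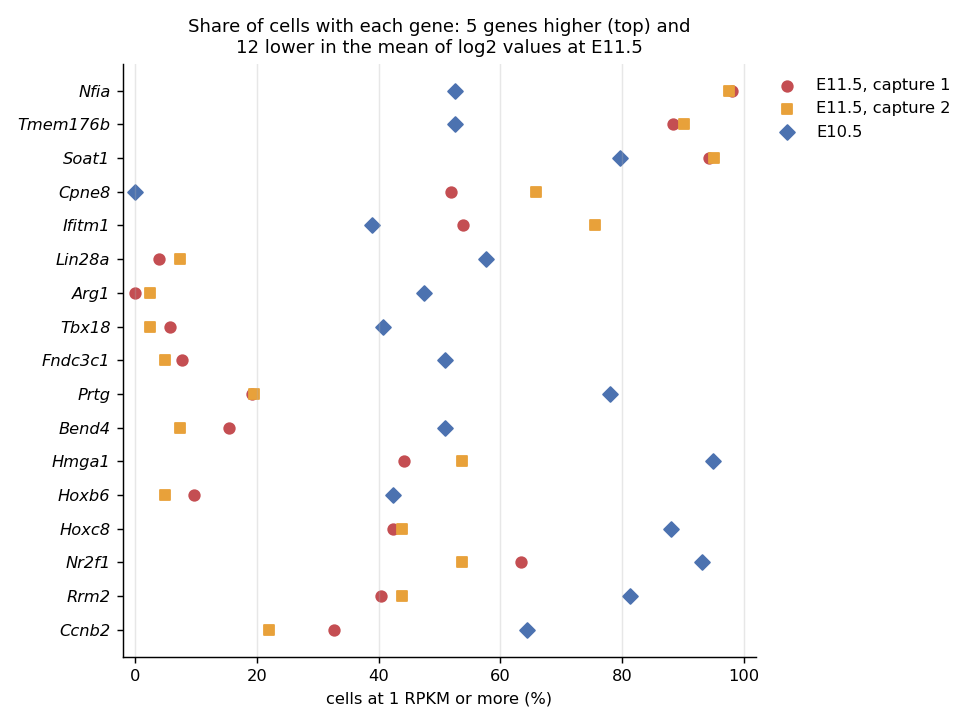
Percent of cells at 1 RPKM or more in each capture, for the 5 genes that rose in both fits (top) and 12 that fell in the mean of log2 values. Lin28a stands at 3.85% and 7.32% at E11.5 and 57.6% at E10.5, and Nfia at 98.1% and 97.6% at E11.5 and 52.5% at E10.5.

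Cell cycle genes had lower values at E11.5, though none passed the threshold on capture means. All 30 tested genes of DNA replication and S phase had negative values, with a median of -0.76, and so did all 33 of G2 and mitosis, with a median of -0.93, against 0.07 for all genes. In both lists 0 genes passed the test. An unadjusted p under 0.05 in limma was found for 3 of 30 and 8 of 33, against 787 of all 12313 genes. Summed over the lists, replication genes stood at 901 and 882 RPKM at E11.5 and 1639 at E10.5, and mitosis genes at 513 and 538 RPKM at E11.5 and 1098 at E10.5. Rrm2, a subunit of the reductase that makes deoxynucleotides, had 96.7 and 72.7 RPKM at E11.5 and 276 at E10.5, and Ccnb2, cyclin B2, had 47.2 and 24.2 at E11.5 and 110 at E10.5. On mean log2 values 1 of 30 replication genes fell, Rrm2, against 0.666% of all genes. Of the 33 mitosis genes 4 fell in that fit, Ccnb2, Cenpa, Birc5 and Cdca3. Ccnb2 was found in 17 of 52 and 9 of 41 cells at E11.5 and in 38 of 59 at E10.5. Members of a list share cells in cycle and are not independent of each other.

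The genes that rose at E11.5 were then followed over the later captures, 2 for each of the stages E12.5, E13.5 and E16.5. All 47 lay above E10.5 in all 6 later captures, among them the E13.5 captures, which were sequenced to 25 M reads as was E10.5. The later captures entered the same fit, so this only describes the genes. In 27 genes both E16.5 captures lay above both E11.5 captures, and in 9 below. Gstm1 was higher again at later stages, with 701 and 1160 RPKM in the E12.5 captures, 1743 and 763 RPKM in those of E13.5 and 1996 and 1757 RPKM in those of E16.5. Inha stayed level from E11.5 to E13.5, between 42.9 and 68.3 RPKM, and stood at 586 and 507 RPKM at E16.5. Ifitm1 was highest at E11.5, with 130 and 82.6 RPKM at E12.5 and 33.6 and 34.1 at E16.5. It was 1 of 10 genes with their highest capture at E11.5, along with Kctd14, Rgcc, Cpne8, Mansc4, Tmem176a, Soat1, Mfge8, Serpinb6b and Tst. Lin28a was at most 1.59 RPKM in any later capture.

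**Figure D5:**
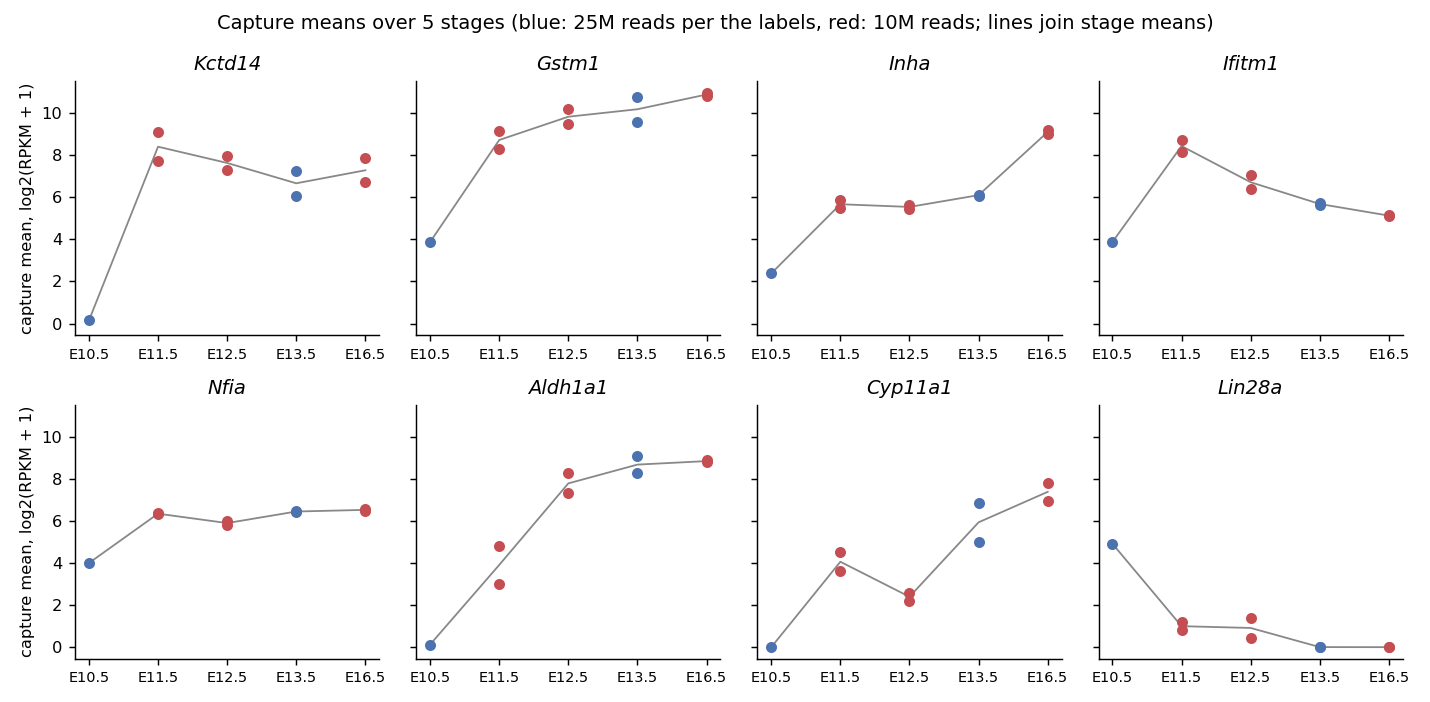
Capture means on a log2(RPKM + 1) axis over the 5 stages for 8 genes, with lines through the stage means of log2 values and colours for the labelled sequencing depth. Stage means of Gstm1, Inha and Aldh1a1 are highest at E16.5, those of Ifitm1 and Kctd14 at E11.5, and that of Lin28a at E10.5.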

How the data were processed

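RPKM values, deposited by the authors, cover 16459 genes in 400 of 435 labelled cells. The unit was read from the values, which times exonic length (GENCODE M21) step by a constant in each cell, and this step gave the implied depth (1.08 to 13.0 M reads). Builds GRCm38.p3 and mm10 are named per the submitters' processing notes, while aligner, counting and annotation were not given in the sources used here. Cells under 3000 genes (3, at E16.5) were left out and a near-identical E12.5 pair (r 0.998) averaged. Log2(capture mean RPKM + 1) was fitted with limma 3.58.1 (R 4.3.3; trend, robust) over 9 captures and 5 stages (4 residual degrees of freedom), on genes of at least 1 RPKM in 2 captures, with Benjamini-Hochberg adjustment at 0.05. The fit was tested on simulated data. Members and gene lists were chosen with earlier results of these data known. Named genes were the 20 largest rises and up to 10 falls among called genes of at least 5 RPKM, up to 4 called members of each list (otherwise 2 by smallest p), eGFP and Nr5a1. Others were named after their values were seen. The mean of log2 values was a listed alternative, and its own alternatives were added after seeing the data.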

Additional observations from a re-analysis of the deposited data

How the results depend on the processing

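On capture means, 47 genes rose and 1 fell. Median-ratio scaling gave 43 and 2, with a median gene at 0.01. A pseudocount of 0.1 gave 98 and 0, and one of 5 gave 8 and 4. No filter on low values gave 41 and 164, and a filter at 5 RPKM gave 55 and 0. The trimmed mean gave 27 and 260, and the mean of log2 values 10 and 82 (10 and 81 with the 25 M read run thinned). The E10.5 and E11.5 captures alone gave 106 and 13, and all cells without the filter 43 and 1. Removing cells with markers of other types gave 24 and 1, and subtracting the E12.5 minus E13.5 contrast 17 and 0. The plain variance model gave 0 and 0. Leaving out 1 capture in turn gave 6 to 47 rises and 0 to 2 falls. For the mean of log2 values, leaving out 1 capture gave 1 to 23 rises and 17 to 86 falls (51 and 54 without either E13.5 capture), removing cells with markers of other types 8 and 53, subtracting the contrast 2 and 21, and the plain variance model 1 and 3. The cause of these differences was not tested. Among single genes, Jag1 turned to 0.66 without cells with markers of other types and Bmp4 to 0.44 with the contrast subtracted, neither called. No paired analysis was possible because E10.5 has 1 capture and captures of different stages share no source in the labels. The E10.5 capture cannot be left out, so its own deviation cannot be separated from stage.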
